A study of Mus musculus with 31 samples.

Results

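The 7 genes described here belong to cholesterol biosynthesis: the enzyme genes Hmgcs1, Idi1, Fdps, Fdft1, Sqle and Lss and the regulator gene Insig1. They are Hmgcs1 (ENSMUSG00000093930.3), Sqle (ENSMUSG00000022351.15), Idi1 (ENSMUSG00000058258.16), Fdft1 (ENSMUSG00000021273.12), Fdps (ENSMUSG00000059743.13), Lss (ENSMUSG00000033105.13) and Insig1 (ENSMUSG00000045294.12). They were taken by symbol, as 7 of the 15648 genes in the count table, and were measured in bulk RNA of the left hippocampus of 31 adult mice. All mice were OT-I/Rag1-/-, so that rAAV-OVA and rAAV-control mice alike carried a T cell receptor transgene against ovalbumin and lacked other mature T cells and all mature B cells. The rAAV-OVA group received rAAV-hSyn-OVA-mCherry into the dorsal CA1 region of both hippocampi, and the rAAV-control group received rAAV-hSyn-mCherry, which lacks the antigen. Both groups were given the analgesic ketoprofen. The hSyn promoter limits either product to neurons, so the antigen was a neuronal one, and each mouse contributed 1 hippocampus. Tissue was taken at day 2, 5, 8 or 28 after injection, from 4 mice per group and day except 3 rAAV-control mice at day 8. Mice of 5 and 8 days all came from batch 1 of the labels, and each group of 2 and 28 days held 2 mice of batch 1 and 2 of batch 2. The comparison asks how expression in the antigen group departed from its vector control at each stage of this T cell-driven limbic encephalitis model.

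Cholesterol does not cross the blood-brain barrier, and the adult brain therefore makes its own, largely in glial cells. Acetyl-CoA is built up through mevalonate and isoprenoid diphosphates to squalene, which is closed to lanosterol and trimmed to cholesterol. The genes of the route share a control circuit: the transcription factor SREBP-2 is released from the endoplasmic reticulum when membrane sterol is low, and the INSIG proteins hold it back when sterol is high. Hmgcs1 encodes the HMG-CoA synthase at the entry of the mevalonate pathway, Idi1 the isomerase of isopentenyl diphosphate, Fdps the synthase of farnesyl diphosphate, Fdft1 squalene synthase, Sqle squalene epoxidase and Lss lanosterol synthase. Insig1 encodes a retention protein of the circuit and is at the same time a target of SREBP.

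The RefSeq promoter table matched 4 of the 7 genes by symbol, Hmgcs1, Idi1, Lss and Insig1, but not Sqle, Fdft1 and Fdps, and the 250 bases before each start are shown because SREBP acts at such promoters together with the CCAAT-binding factor NF-Y and with Sp1. The sequences run 5′ to 3′ on the gene's strand (all on the + strand of GRCm38.p6, a different build from that of the counts), and capitals mark matches on either strand to TCACNCCAC (a strict sterol regulatory element), CCAAT (read ATTGG on the other strand) and GGGCGG (a GC box, read CCGCCC on the other strand).
Hmgcs1, chr13:119690101-119690350: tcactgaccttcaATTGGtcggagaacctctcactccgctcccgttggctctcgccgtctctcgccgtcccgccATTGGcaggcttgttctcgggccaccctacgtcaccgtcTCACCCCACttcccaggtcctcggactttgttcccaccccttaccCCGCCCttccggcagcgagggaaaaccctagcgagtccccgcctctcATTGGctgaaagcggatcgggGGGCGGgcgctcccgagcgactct
Idi1, chr13:8885356-8885605: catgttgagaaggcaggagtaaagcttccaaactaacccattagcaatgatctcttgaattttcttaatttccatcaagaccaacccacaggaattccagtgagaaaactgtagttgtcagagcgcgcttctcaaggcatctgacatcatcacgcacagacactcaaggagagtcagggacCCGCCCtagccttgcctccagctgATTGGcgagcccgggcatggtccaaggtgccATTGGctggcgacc
Lss, chr10:76531355-76531604: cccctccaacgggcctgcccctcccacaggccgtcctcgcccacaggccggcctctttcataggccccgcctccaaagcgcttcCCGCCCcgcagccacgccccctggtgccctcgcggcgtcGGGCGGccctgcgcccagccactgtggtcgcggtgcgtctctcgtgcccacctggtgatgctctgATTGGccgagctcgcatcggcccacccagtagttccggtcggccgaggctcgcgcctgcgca
Insig1, chr5:28071162-28071411: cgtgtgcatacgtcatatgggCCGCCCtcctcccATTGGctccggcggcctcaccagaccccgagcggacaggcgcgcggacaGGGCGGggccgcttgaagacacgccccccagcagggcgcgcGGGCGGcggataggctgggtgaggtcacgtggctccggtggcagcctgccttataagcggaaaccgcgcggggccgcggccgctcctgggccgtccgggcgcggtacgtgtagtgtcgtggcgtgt
All 4 windows held a CCAAT and a GGGCGG match, which 33.8% and 32.7% of the 32851 windows of this length in the RefSeq table held. The strict sterol element was matched in Hmgcs1, from base -137 to -129 counted from the start site, and in 1.05% of all windows. The looser form TCACNCNA was matched in Hmgcs1 as part of the same site, in no other of the 4 genes, and in 9.10% of all windows. Of the 16 other enzymes of the route 14 had a window, and 0, 2, 12 and 13 of these held the strict element, the looser element, CCAAT and GGGCGG. No match says only that these letters are not in these 250 bases.

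Depth ran from 19046977 to 57407902 counts per mouse with a median of 27024978, and levels are given as CPM, the count per 1000000 counts of the mouse after TMM scaling. A gene was called at an FDR of at most 0.05 in edgeR's quasi-likelihood test, and a DEG had in addition an absolute Log2FC of at least 0.66. With library totals in place of TMM, the median Log2FC of all genes at 5 days moved from -0.01 to 0.12, and the share of calls that were lower was 25.4% instead of 47.9% at 5 days, 8.10% instead of 24.2% at 8 days and 30.4% instead of 42.7% at 28 days. The label of hippocampal tissue was met by neuron, CA1 and dentate granule cell markers above 0 in all mice. Bulk RNA cannot tell fewer cells of a type from less RNA per cell, for any value below.

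In the rAAV-control mice none of the 7 genes was called across the month. Mean Hmgcs1 ran from 276 CPM at 8 days to 356 CPM at 28 days, mean Insig1 from 56.1 CPM at 2 days to 71.3 CPM at 8 days, and mean Sqle from 56.5 CPM at 28 days to 59.6 CPM at 5 days. The test over the 4 time points in edgeR called 0 of 7, with FDR from 0.363 for Insig1 to 0.974 for Idi1, against 3.08% of all genes. None of the 7 had an unadjusted p under 0.05, and DESeq2 also called 0.

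**Figure D1:**
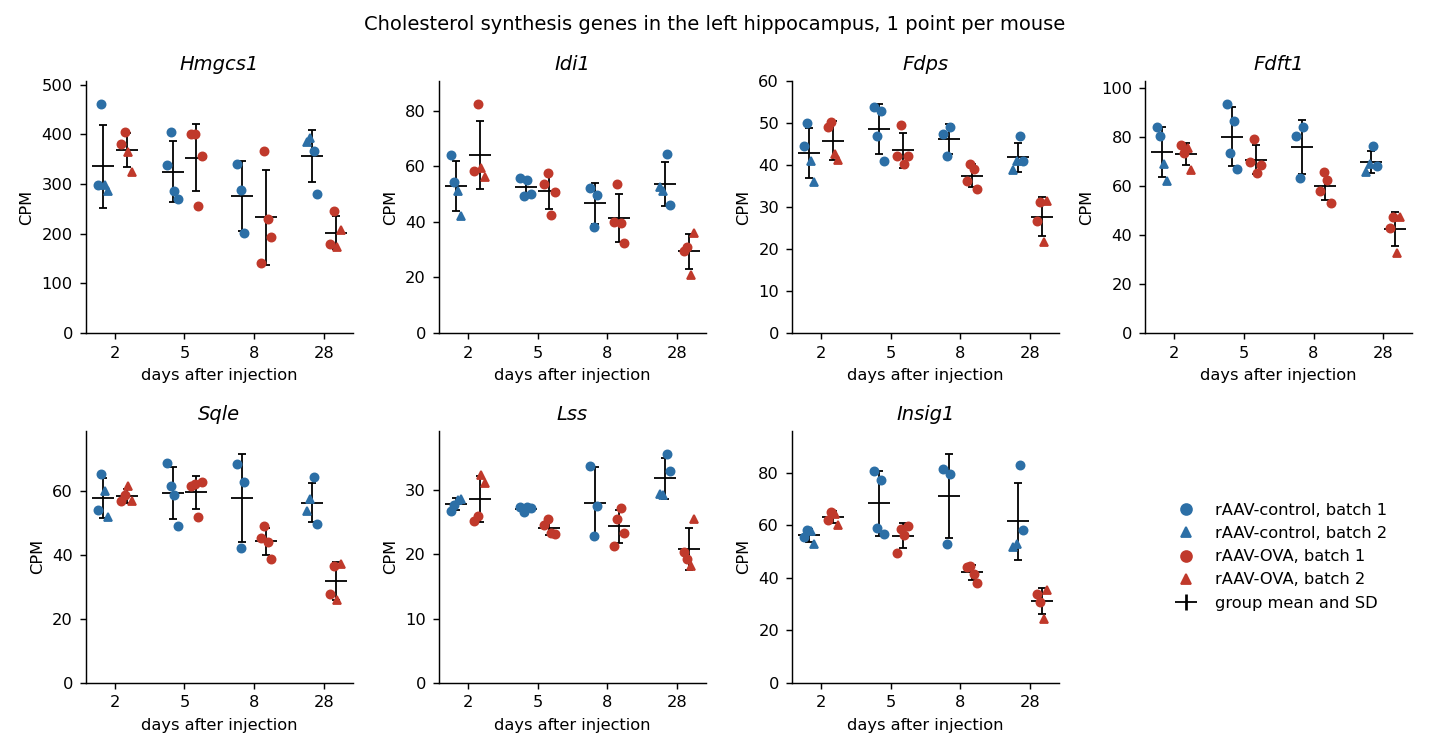
Expression (CPM, y axis from 0) of each gene against days after injection, with 1 point per mouse, circles for batch 1, triangles for batch 2, and bars for the group mean and SD. The groups overlap for 6 of 7 genes at 2 days and again at 5 days, while for all 7 the 28-day points of the rAAV-OVA mice lie under those of the controls without overlap.

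At 2 days none of the 7 genes was called. Log2FC ran from -0.04 for Fdft1 to 0.23 for Idi1, and edgeR called 0 of 7 at an FDR of 0.05, none at an unadjusted p under 0.05. DESeq2 also called 0. The background was 0% of all genes called (1428 had an unadjusted p under 0.05, and DESeq2 called 20). For Insig1 the rAAV-OVA mice, at 60.3 to 65.2 CPM, lay above the rAAV-control mice, at 52.8 to 58.2 CPM, which 2.22% of all genes did, but the Log2FC of 0.16 (SE 0.15, FDR 0.805) did not pass. Summed monocyte markers at this day ran from 87.2 to 167 CPM in rAAV-OVA and from 177 to 1053 CPM in rAAV-control mice, and their part in these values was not tested.

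At 5 days, when 29.2% of all genes were called, 0 of the 7 genes were, none of them at an unadjusted p under 0.05, and DESeq2 called 0 as well. The largest Log2FC in size was -0.22 for Insig1 (SE 0.15, FDR 0.294), and Hmgcs1, at 354 ± 68.3 CPM in rAAV-OVA and 325 ± 60.8 CPM in rAAV-control mice (SD, n = 4), stood at 0.17 (SE 0.24, FDR 0.619). For Lss every rAAV-OVA mouse, 23.2 to 25.5 CPM, lay below every rAAV-control mouse, 26.7 to 27.4 CPM, as for 19.6% of all genes. The fitted Log2FC of Lss, which takes the surrogate variables into account, was -0.04 (SE 0.09, FDR 0.767), and 0.09 with library totals in place of TMM, which also turned Fdft1 and Fdps from -0.13 and -0.12 to 0.01 and 0.01. Over all alternatives Lss ran from -0.17 to 0.09, with a lowest FDR of 0.149. The median Log2FC of the 7 was -0.04, and -0.16 without surrogate variables or with the batch label in their place.

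At 8 days all 7 genes had a Log2FC below 0, with a median of -0.36 beside -0.03 over all genes, and 3 of 7 fell, against 4.44% of all genes called lower. Insig1 fell most. Its levels were 44.1, 44.3, 41.5 and 38.1 CPM in the rAAV-OVA mice and 81.6, 52.8 and 79.4 CPM in the rAAV-control mice, with no overlap, and the Log2FC was -0.77 (SE 0.16, FDR 0.00193). It was the 1 DEG of the 7, where 0.588% of all genes were DEGs with a lower level. Fdft1 had 58.0, 65.8, 62.7 and 53.3 CPM in rAAV-OVA and 80.6, 63.5 and 84.2 CPM in rAAV-control mice, with some overlap, and fell by 0.39 on the log2 scale (SE 0.12, FDR 0.0316). Fdps had 36.3, 40.3, 39.0 and 34.4 CPM and 47.4, 42.3 and 49.1 CPM and fell by 0.36 (SE 0.12, FDR 0.0352). Fdps and Insig1 were the 2 genes without overlap between the groups, a pattern that 11.9% of all genes showed. At the same day 7 of 8 monocyte markers were higher, beside 13.9% of all genes. Their sums were 500.1 to 2050.2 CPM in rAAV-OVA and 43.2 to 289 CPM in rAAV-control mice. Of 10 T cell markers only 3 were tested, with sums of 90.0 to 269 CPM and 2.72 to 24.2 CPM. The table kept genes with a minimum count in a minimum number of mice. With low control sums, these 3 could pass that filter mainly through the rAAV-OVA mice, so their contrast is no support. Neuron and oligodendrocyte markers, 10 of 10 in each list with a Log2FC below 0, had medians of -0.38 and -0.36, close to that of the 7 genes, with 0 and 1 of 10 called lower. Summed CA1 markers, with 0 of 8 called by edgeR, lay at 730.02 to 846 CPM and 995 to 1166 CPM. Their part in these values was not tested.

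Sqle, Idi1, Lss and Hmgcs1 did not pass at 8 days. Sqle stood at -0.36 (SE 0.15, FDR 0.0867). Its rAAV-control mice lay at 68.7, 42.2 and 62.9 CPM and its rAAV-OVA mice between 38.9 and 49.2 CPM, so that the control mouse at 42.2 CPM fell inside the range of the antigen group. That mouse, D720, had the lowest level of its group for 6 of the 7 genes, and its summed monocyte markers stood at 289 CPM beside 43.2 and 51.1 CPM in the other rAAV-control mice. Without D720 edgeR called 4 of 7, Sqle added, and without any 1 of the other 6 mice of that day it called 1, Insig1. With the mice of that day alone 0 of 7 were called, as for all genes of the table, and Insig1 had an FDR of 0.0588. Hmgcs1 varied most among the antigen mice, from 142 CPM in D700 to 366 CPM in D701.

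At 28 days all 7 genes fell, where 14.3% of all genes were called lower. The median Log2FC of the 7 was -0.74 beside 0.01 over all genes, and mean levels stood between 50.5% of the rAAV-control mean for Insig1 and 66.3% for Fdps. For each of the 7 every rAAV-OVA mouse lay below every rAAV-control mouse, which held for 14% of all genes. The limit of a DEG was met by 4 of 7, beside 4.86% of all genes: Insig1, Idi1, Sqle and Hmgcs1.

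Hmgcs1, at the entry of the pathway, was measured at 180.3, 246, 173 and 208 CPM in the rAAV-OVA mice D661, D667, D845 and D844 and at 385.3, 393, 366 and 280.3 CPM in the rAAV-control mice D843, D851, D705 and D706, the order kept for each gene at this day. The highest antigen mouse stayed under the lowest control mouse, and the Log2FC was -0.74 (SE 0.24, FDR 0.0206). This was the least certain of the 7 calls: leaving out D661, D845, D844 or the control mouse D851 gave an FDR of 0.0569, 0.0516, 0.134 and 0.0655.

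Idi1 and Fdps, which supply the isoprenoid diphosphates, followed. Idi1 had 29.5, 31.04, 20.7 and 36.1 CPM in rAAV-OVA mice and 52.5, 51.2, 64.5 and 46.0 CPM in rAAV-control mice, with a Log2FC of -0.77 (SE 0.15, FDR 0.00077). Fdps had 26.7, 31.3, 21.7 and 31.3 CPM and 38.8, 40.9, 46.9 and 40.9 CPM, with a Log2FC of -0.54 (SE 0.11, FDR 0.00115). In both genes D845 was the lowest of the antigen mice.

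Fdft1, Sqle and Lss carry the route through squalene to lanosterol. Fdft1 had 42.9, 47.2, 32.6 and 47.3 CPM in rAAV-OVA mice and 65.7, 69.1, 76.5 and 68.4 CPM in rAAV-control mice, and its Log2FC was -0.65 (SE 0.12, FDR 0.000514). Sqle had 27.7, 36.5, 25.9 and 37.4 CPM and 54.0, 57.6, 64.4 and 49.8 CPM, with a Log2FC of -0.75 (SE 0.14, FDR 0.000577). For both squalene genes all 4 antigen mice lay under all 4 control mice. Lss had 20.4, 19.3, 18.2 and 25.5 CPM and 29.4, 29.2, 35.7 and 33.05 CPM, and a Log2FC of -0.50 (SE 0.09, FDR 0.000544), the smallest of the 7.

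Insig1, the regulator, had the largest change of the 7, with 33.9, 30.7, 24.2 and 35.3 CPM in rAAV-OVA and 51.9, 52.8, 83.0 and 58.3 CPM in rAAV-control mice. The Log2FC was -0.92 (SE 0.16, FDR 0.000273). The control mouse D705, at 83.0 CPM, was highest of its group for 6 of the 7 genes, and without it 7 of 7 were still called, with a median Log2FC of -0.68.

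**Figure D2:**
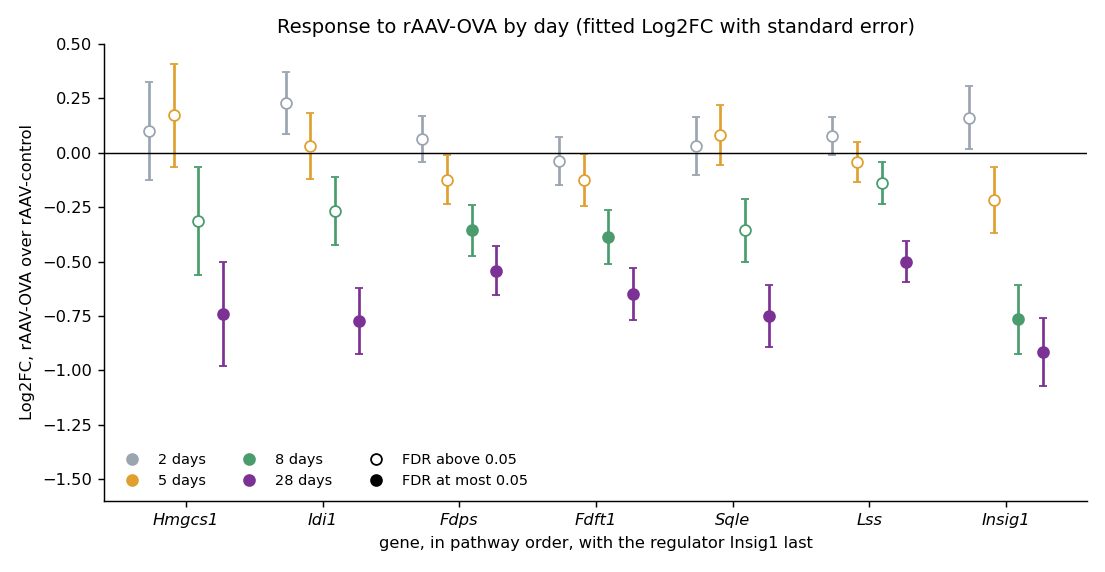
Fitted Log2FC of rAAV-OVA over rAAV-control (y axis) with its standard error for each gene and day, filled where the FDR was at most 0.05. The values lie around 0 at 2 and 5 days, 3 of 7 are filled at 8 days, and all 7 are filled at 28 days, from -0.92 for Insig1 to -0.50 for Lss.

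Since the groups did not overlap at 28 days, they could not overlap within a batch either, and the sizes within each batch are given as a description. Mean Insig1 in rAAV-OVA mice was 45.8% of the control mean in batch 1 and 56.9% in batch 2, Hmgcs1 66.0% and 49.0%, Idi1 54.8% and 54.8%, and Lss 57.6% and 74.6%. With 2 mice against 2, edgeR called 2 of 7 in batch 1 alone (Lss and Insig1), where 78 of all 15648 genes were called lower, and 0 of 7 in batch 2 alone, where it called 0 of all genes.

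The change between 5 and 28 days was tested as a difference in response. A lower response at 28 days was called for 5 of the 7, beside 4.05% of all genes (9.63% in either direction): Sqle by -0.83 on the log2 scale (SE 0.19, FDR 0.00728), Idi1 by -0.80 (SE 0.20, FDR 0.0152), Insig1 by -0.70 (SE 0.20, FDR 0.0326), Fdft1 by -0.52 (SE 0.16, FDR 0.0377) and Lss by -0.46 (SE 0.12, FDR 0.0221). Hmgcs1 at -0.91 (SE 0.32, FDR 0.0658) and Fdps at -0.42 (SE 0.15, FDR 0.0734) did not pass. The count of 5 depended on the fit: it was 1, Sqle, without surrogate variables and 3 with the batch label in their place. It was 2 without D726, D845 or D844, 3 without D725, D787, D755 or D705, and up to 7 without D667. Sqle passed under all 22 alternatives and Idi1 under 21.

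Between neighbouring days none of the 7 was called for a change in response. From 2 to 5 days 0 of 7 changed their response, where 20.8% of all genes did, and none had an unadjusted p under 0.05. From 5 to 8 days edgeR called 0 of 7 (2 at an unadjusted p under 0.05, Sqle and Insig1) and 0.192% of all genes. From 8 to 28 days it called 0 of 7 (2 at an unadjusted p under 0.05, Idi1 and Lss) and 0% of all genes, of which 2521 had an unadjusted p under 0.05. DESeq2 called 0 of 7 in each of these 3 tests.

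The other enzymes of the route formed a list of 16 genes. Higher and lower calls among the 16 were 0 and 0 at 2 days, 2 and 1 at 5 days, 1 and 4 at 8 days and 1 and 10 at 28 days, with a median Log2FC of 0.02, -0.07, -0.31 and -0.45. Of all genes 15.2%, 13.9% and 19.2% were called higher and 14%, 4.44% and 14.3% lower at 5, 8 and 28 days, so that the 5-day counts and each count of higher genes were at or below the background. Mvk and Mvd, a kinase and the decarboxylase of the mevalonate pathway, fell at 28 days by 0.37 (FDR 0.0414) and 0.61 (FDR 0.00844). Pmvk, the kinase between them, stood at 0.06 (FDR 0.712), and Acat2, a thiolase at the entry of the route, at -0.25 (FDR 0.0978).

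After lanosterol, the demethylase Cyp51 fell by 0.66 (SE 0.13, FDR 0.000651) and the sterol oxidase Msmo1 by 0.77 (SE 0.15, FDR 0.000861) at 28 days. Hsd17b7, Tm7sf2, Nsdhl and Sc5d fell by 0.78, 0.53, 0.36 and 0.53. Dhcr7, the last reductase, fell by 0.40 at 8 days (SE 0.12, FDR 0.0211) and stood at -0.26 at 28 days (FDR 0.0783), and Erg28 stood at -0.02. Ebp, a sterol isomerase, rose by 0.39 at 5 days (SE 0.12, FDR 0.0143), where 15.2% of all genes were called higher, and stood at 0.20 and 0.25 at 8 and 28 days, which did not pass. Lbr, a sterol reductase that is also a receptor of the nuclear lamina, rose by 0.85 at 5 days, 0.96 at 8 days and 0.81 at 28 days on the log2 scale, where 13.9% and 19.2% of all genes were called higher at 8 and 28 days. Tm7sf2, which has the same reductase activity, stood at 5.21 CPM in rAAV-OVA and 8.39 CPM in rAAV-control mice at 28 days. With the mice of 8 days alone 0 of the 16 were called lower, and without 1 mouse the count of 4 was 0 without D703 or D722, 1 without D700, D702 or D696, 3 without D701 and 6 without D720.

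**Figure D3:**
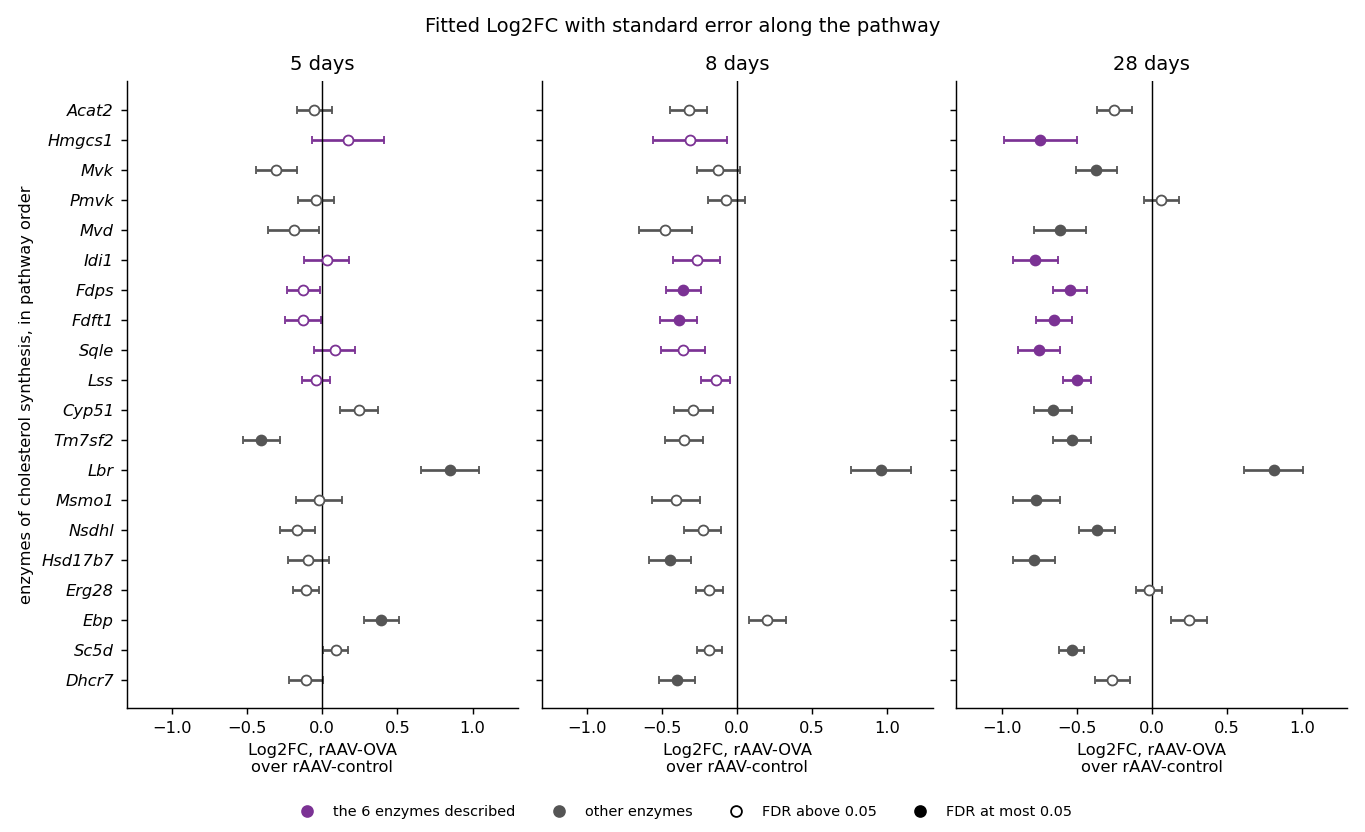
Fitted Log2FC of rAAV-OVA over rAAV-control (x axis) with its standard error for 20 enzymes in pathway order at 5, 8 and 28 days, with the 6 enzymes described in purple, another 14 in grey, and filled points where the FDR was at most 0.05. At 28 days 14 of the 20 are filled on the left of 0 and Lbr is filled on the right.

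Of 11 tested genes of the SREBP circuit, 1 was higher and 4 were lower at 28 days, with a median Log2FC of -0.01, beside 19.2% and 14.3% of all genes. Srebf2, which encodes SREBP-2, fell by 0.35 at 8 days (SE 0.09, FDR 0.00682) and by 0.47 at 28 days (SE 0.09, FDR 0.000438), from 222 ± 16.6 CPM in rAAV-control to 157 ± 14.6 CPM in rAAV-OVA mice (SD, n = 4). Stard4, which encodes a sterol carrier, fell by 0.50 and the protease gene Mbtps2 by 0.35 at 28 days. Srebf1, which encodes SREBP-1 and is a target of the oxysterol receptor LXR, rose at 28 days from 60.9 ± 4.33 to 125 ± 34.0 CPM (SD, n = 4; Log2FC 0.93, SE 0.15, FDR 0.000211). Scap and Insig2, the partners of the release step, stood at -0.01 and -0.05.

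The neighbouring lipid lists are read against 19.2% of all genes called higher and 14.3% called lower at 28 days. Of 12 fatty acid synthesis genes 2 were higher (Elovl5 by 0.50 and Fads2 by 0.37) and 2 lower (Acss2 by -0.69 and Elovl6 by -0.55), with a median Log2FC of -0.17, near the background in both directions. Of 12 genes of the isoprenoid branch 0 were higher and 1, Rabggta, was lower, with a median of -0.13, below the background. Of 12 genes of cholesterol efflux and other LXR targets 7 were higher and 1 lower, with a median of 0.45. Their sums were 5742, 4037, 6987 and 2853 CPM in the rAAV-OVA mice D661, D667, D845 and D844. Summed monocyte markers of these mice were 1740, 823, 1758 and 94.9 CPM. Abca1, the efflux pump, rose from 64.6 ± 5.34 to 252 ± 115.3 CPM (SD, n = 4; Log2FC 1.56, SE 0.31, FDR 0.000823), and Apoe, the gene of the main apolipoprotein of the brain, from 1322 ± 166 to 4187 ± 1632 CPM (Log2FC 1.50, SE 0.22, FDR 9.39e-05). At 5 days Apoe had fallen, by 0.79 (SE 0.22, FDR 0.00866). Of 12 genes of cholesterol oxidation, storage and lysosomal handling 6 were higher and 0 lower at 28 days, with a median of 0.68: Soat1, which esterifies cholesterol, rose by 0.70 and Npc2, which carries it out of lysosomes, by 1.24.

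**Figure D4:**
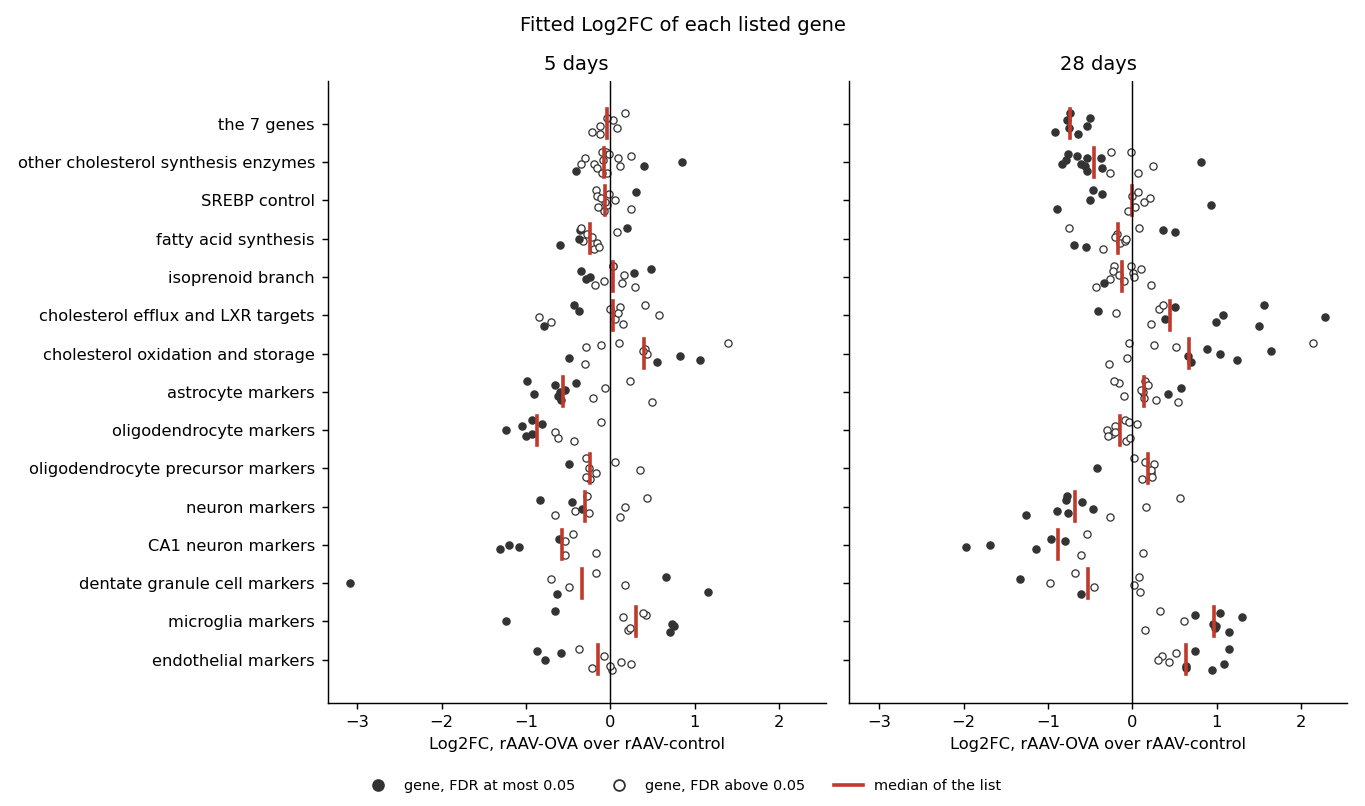
Fitted Log2FC of rAAV-OVA over rAAV-control (x axis) for each gene of the listed groups (rows) at 5 and 28 days, filled where the FDR was at most 0.05, with the list's median as a red bar. The median of the 7 genes lies at -0.04 at 5 days and at -0.74 at 28 days, while the medians of astrocyte and oligodendrocyte markers lie at -0.57 and -0.87 at 5 days. Monocyte and T cell markers are not drawn.

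Cell type markers differed between the same groups, and their counts stand beside 19.2% of all genes called higher and 14.3% called lower at 28 days. At that day 7 of 10 neuron markers were lower (median Log2FC -0.68, summed level 4699 to 10065 CPM in rAAV-OVA and 11903 to 13283 CPM in rAAV-control mice), led by Slc17a7 and Snap25, as were 5 of 8 CA1 markers (442 to 805 and 980.1 to 1164 CPM), led by Neurod6 and Spink8, and 2 of 8 dentate granule cell markers (340 to 584 and 548 to 649 CPM), Dsp and Stxbp6. Log2FC was below 0 for 8 of 10 neuron, 7 of 8 CA1 and 5 of 8 dentate markers, with highest values of 0.57, 0.13 and 0.09. Higher were 7 of 10 microglia markers (588 to 1665 and 441 to 498 CPM), Cx3cr1 among them, as were 7 of 8 monocyte markers (94.9 to 1758 and 17.4 to 29.4 CPM), led by Lyz2 and Ccr2, and 6 of 10 endothelial markers (310.0 to 519.7 and 228 to 273 CPM), led by Cldn5 and Pecam1. Of 10 T cell markers 3 were tested and all 3, Cd8a, Lck and Gzmb, were higher (10.8 to 252 and 0.870 to 1.96 CPM), and the other 7, Cd3e among them, were not among the genes tested. The filter of the table asks for 15 counts in at least 15 mice, and with control sums this low these 3 could pass it mainly through the rAAV-OVA mice, so their count is no support. The part of these cell types in the fall of the 7 genes and in the changes of the lipid lists was not tested.

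Astrocytes and oligodendrocytes make most of the brain's cholesterol. At 28 days 0 of 12 astrocyte markers were lower and 2 were higher (Slc1a3 and Gja1), with a summed level of 6836 to 8676 CPM in rAAV-OVA and 6451 to 8293 CPM in rAAV-control mice. Of 10 oligodendrocyte markers 0 were called in either direction (5855 to 10080.1 and 6414 to 8747 CPM). Of these 10, 9 had a Log2FC below 0, with a median of -0.15. Of 8 oligodendrocyte precursor markers 1, Tnr, was lower and the other 7 had a Log2FC above 0 without a call, with a median of 0.18 (434 to 524 and 499 to 561 CPM). The shares of all genes called at 28 days were 19.2% higher and 14.3% lower, so that 2 of 12 and 1 of 8 were near the background. At 5 days, when none of the 7 genes was called, 8 of 12 astrocyte markers were lower (5313 to 6159 and 7485 to 8414 CPM), led by Ntsr2 and Gja1, as were 6 of 10 oligodendrocyte markers (3429 to 5061 and 5258 to 9021 CPM), led by Mal and Mog, where 14% of all genes were called lower. Monocyte markers at 5 days (754.6 to 1387 CPM in rAAV-OVA and 24.6 to 184 CPM in rAAV-control mice) were already higher in 6 of 8, beside 15.2% of all genes. Of the neuron markers 3 of 10 were lower at 5 days, and of the CA1 markers 4 of 8, with a median Log2FC of -0.58 and no overlap of the sums (685 to 803 and 1086 to 1263 CPM). The part of these cell types in the values of the 7 genes was not tested at either day.

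The 4 rAAV-OVA mice of 28 days differed among themselves. D845 was the lowest for all 7 genes, at 38.7% of the control mean for Idi1 to 57.2% for Lss, and D844 the highest for 6 of 7, at 57.4% for Insig1 to 80.1% for Lss. D845 had the lowest summed neuron markers, 4699 CPM, and 1758 CPM of monocyte and 248 CPM of T cell markers. D844 had 8152 CPM of neuron markers, 94.9 CPM of monocyte and 10.8 CPM of T cell markers, the lowest of the group for both immune lists, and its 442 CPM of CA1 markers were also the lowest, beside 582 CPM in D845, 628 CPM in D661 and 805 CPM in D667. In D844 all 7 genes were below all 4 rAAV-control mice. D661, with 1740.5 CPM of monocyte and 252 CPM of T cell markers, lay at 49.1% for Sqle to 63.9% for Lss, and D667, with 823 and 122 CPM, at 49.96% for Insig1 to 74.8% for Fdps.

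**Figure D5:**
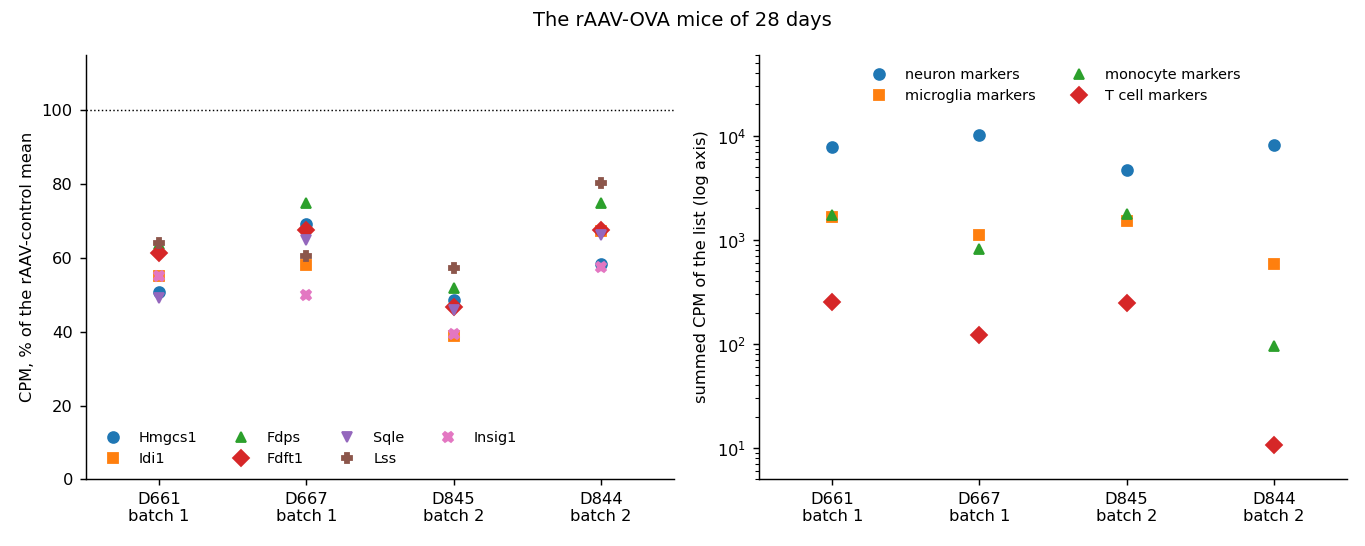
Left, level of each of the 7 genes in the 4 rAAV-OVA mice of 28 days as a percentage of the rAAV-control mean of that day (dotted line at 100). Right, summed CPM of neuron, microglia, monocyte and T cell markers in the same mice on a log axis. D845 has the lowest point for every gene, and D844 lies under 100 for every gene with T cell markers at 10.8 CPM.

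Over the 31 mice, the genes whose pattern was most like the mean standardized level of the 7 (log2 CPM with a prior count of 2) were ranked by Pearson's r, as a description, since the mice share groups and batches. Enzymes of the same route among the 10 closest included Msmo1 (r 0.943), Cyp51 (0.930), Sc5d (0.928) and Acat2 (0.895). Genes of no list used here were Cnrip1 (0.920), Sh3yl1 (0.916), Pitpna (0.899), Reep1 (0.898) and Rgs7 (0.893).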

How the data were processed

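Reads of each left hippocampus (TruSeq mRNA libraries, paired ends) were, by the authors, trimmed with fastp, assigned to GENCODE M29 transcripts with salmon 1.8.0 and summed to genes with tximeta. The values are estimated counts as deposited by the authors, in whole numbers without normalization, for genes the authors kept at 15 counts or more in at least 15 of 31 mice, and both tables they deposited hold the same values (0 cells differ). Their own test used DESeq2 1.36.0 with surrogate variables. Estimated counts divide reads shared between transcripts, so values of genes with near copies are uncertain.

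From these counts edgeR 4.0.16 (R 4.3.3, TMM, robust quasi-likelihood F-test) was fitted to all 31 mice and all 15648 genes, with 8 group terms plus 2 surrogate variables estimated by sva 3.50.0, and FDR values are Benjamini-Hochberg over all genes, two-sided. SE is the Log2FC divided by the square root of F. Mice are separate animals and were grouped by the vector, day and batch labels. The closest pair within a group differed by a chi-square of 11.7 per gene, more than counting noise. The 7 genes, the other lists, the markers and the motifs were chosen with earlier results of these data known. Named genes are the 7, genes of the lists called at any day, the leading changes of each marker list and the 10 closest patterns, and a few of these are not reported here. Promoters were read from RefSeq (GRCm38.p6) with Python 3.11.15.

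Alternatives were DESeq2 1.42.0, its size factors, no surrogate variables, the batch label, 15 counts in every mouse, 1 day or batch alone, a limit on Log2FC and each mouse left out. Library totals without TMM, and leaving out mice for the other enzymes and for the difference in response, were chosen after seeing the data. The steps were tested on simulated data.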

Additional observations from a re-analysis of the deposited data

Results flagged for a closer look

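In 3 of 49 tests, each of 1 gene in 1 group, 1 mouse stood far from the others of its group. Chance gives about 1 test in 20, so this count is near chance, and the tests share mice. Hmgcs1 reached 461 CPM in the rAAV-control mouse D743 at 2 days, and the next highest mouse had 299 CPM. Sqle was 52.1 CPM in the rAAV-OVA mouse D786 at 5 days, and the next lowest had 61.7 CPM. Idi1 was 82.4 CPM in the rAAV-OVA mouse D684 at 2 days, and the next highest had 59.5 CPM.

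The response to rAAV-OVA differed between 28 and 5 days for 5 of the 7 genes, in 28 tests over 4 pairs of days. For this pair of days 9.63% of all genes were called in either direction and 4.05% lower. The difference on the log2 scale was -0.83 for Sqle, -0.80 for Idi1, -0.70 for Insig1, -0.52 for Fdft1 and -0.46 for Lss. Without surrogate variables 1 of the 7 was called.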

How the results depend on the processing

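At 28 days the 7 genes were lower under all 18 alternatives fitted for each, and of the 126 values 126 lay below 0 and 110 had an FDR of at most 0.05. The count of 7 called became 2 with batch 1 alone, 0 with batch 2 alone and 4 with the limit on Log2FC, and 6 to 7 with 1 mouse left out. At 8 days the count of 3 became 1 with library totals, without surrogate variables, with the batch label in their place, with 15 counts in every mouse or with the limit on Log2FC, 0 with the mice of that day alone, and 1 to 4 with 1 mouse left out. At 2 and 5 days 0 were called under every alternative. The difference in response between 28 and 5 days, called for 5, was called for 1 without surrogate variables, for 3 with the batch label and for 2 to 7 with 1 mouse left out. Other enzymes called lower at 28 days, 10, became 3 with the limit on Log2FC, 7 with the mice of the day alone (Mvk, Mvd and Nsdhl lost, FDR 0.0685, 0.0626 and 0.0933), 12 without surrogate variables, with the batch label or with 15 counts in every mouse, and 7 to 10 with 1 mouse left out. At 8 days their count of 4 became 2 with 15 counts in every mouse, 0 with the mice of the day alone or with the limit, and 0 to 6 with 1 mouse left out. At 5 days their count of 1 became 2 without surrogate variables, 3 with the batch label, 2 with 15 counts in every mouse or the mice of the day alone, 0 with the limit, and 0 to 3 with 1 mouse left out. The cause of these changes was not tested, except that 1 batch or 1 day holds fewer mice.

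Values that changed sign all belonged to genes not called. At 2 days Sqle became -0.0017 with library totals and -0.056 in batch 1 alone, Lss -0.094 in batch 1 alone, and Fdft1 0.10 in batch 2 alone. At 5 days Fdft1, Fdps and Lss became 0.011, 0.010 and 0.090 with library totals, and Idi1 -0.040 without surrogate variables, -0.040 with the batch label and -0.010 with the mice of the day alone. With 1 mouse left out Hmgcs1, Sqle, Fdft1 and Lss at 2 days ran from -0.053 to 0.31, -0.032 to 0.10, -0.10 to 0.020 and -0.029 to 0.14, Sqle, Fdft1 and Lss at 5 days from -0.015 to 0.21, -0.20 to 0.0085 and -0.091 to 0.046, and Lss at 8 days from -0.23 to 0.0098. No paired analysis was possible because the labels give no replicate numbers that pair mice across groups. Each of the 7 genes had at least 15 counts in all 31 mice, and the part of depth in these results was not tested.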
